A study of Mus musculus with 24 samples.

Results

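The genes of MHC class II antigen presentation were followed in CD45+ cells enriched from EMT6-hHER2 breast tumors. The set holds 9 genes, chosen by their gene symbols, and all 9 were among the 16996 genes with values. RNA was sequenced from 24 mice, 1 library per mouse, with 6 mice in each of 4 groups. Mice were female Balb/c animals of 10 to 12 weeks that carried a mammary tumor grown from injected EMT6-hHER2 cells, a single clone of the murine EMT6 breast cancer line made to express human HER2. Tumors of about 80 mm3 were left untreated or received a single dose of trastuzumab at 20 mg/kg, T-DM1 at 15 mg/kg or T-PNU at 1 mg/kg, and CD45+ cells were isolated on day 10. Trastuzumab is an antibody against HER2, T-DM1 is trastuzumab joined to the microtubule poison DM1, and T-PNU is trastuzumab joined to the anthracycline PNU-159682. The doses of the 2 conjugates differ, so payload and dose cannot be told apart between them. The study describes T-PNU tumors as smaller at harvest than at treatment, and reports that trastuzumab and T-DM1 did not prevent growth. In comparisons with T-PNU, treatment and the size or shrinking of the tumor therefore cannot be told apart either.

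MHC class II molecules carry peptides from endosomes to the surface of antigen presenting cells, where CD4 T cells read them. H2-Aa and H2-Ab1 encode the alpha and the beta chain of I-A, and H2-Eb1 encodes the beta chain of I-E. Cd74 encodes the invariant chain, which guides new class II molecules to endosomes and blocks their groove. H2-DMa and H2-DMb1 form H2-M, which removes the last piece of the invariant chain and helps peptides bind. H2-Oa and H2-Ob form H2-O, which restrains H2-M and is best known from B cells. Ciita encodes the coactivator that turns these genes on. It does not bind DNA itself but joins factors on the X box, bound by the RFX complex, and on the Y box, bound by NF-Y. Dendritic cells, macrophages and B cells are the main cells with class II in tumors, and interferon gamma raises Ciita in many other cells, in part through Irf1.

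The 7 H2 genes lie together on chromosome 17 (GRCm38, GENCODE M21), from H2-Oa at chr17:34092340-34095234 to H2-Eb1 at chr17:34305867-34316674, while Cd74 and Ciita lie on other chromosomes. RefSeq promoters (GRCm38.p6) were at hand for 6 of the 9 genes, and H2-Ab1, Cd74 and Ciita had no entry. The 250 bases before the start were searched on both strands for the Y box core ATTGG and for the X box, a 14-base motif for which 1 letter off was allowed. ATTGG was found in 33.9% of all 32851 promoters and the X box in 0.569%. The pair on 1 strand, 30 to 40 bases from start to start, was found in 8 promoters, or 0.0244%. These were H2-Eb1, H2-DMb1 and H2-Ob of the 9 genes, the neighbours H2-DMb2 and H2-Eb2, and Aptx, BC051142 and Gm31108. Of the genes with the pair, H2-Eb1 and H2-DMb1 had a Pearson r of 0.893 with each other over the 24 samples. H2-Ob, which also has the pair, had r of 0.579 with H2-Eb1 and 0.298 with H2-DMb1. The pair was not found in H2-Aa and H2-Oa, which are shown beside them. The stretch around the Y box is shown for 5 of the genes, on the strand of the gene. ATTGG and, where it was found, the X box are in capitals.
H2-Eb1, chr17:34305753-34305822, plus strand: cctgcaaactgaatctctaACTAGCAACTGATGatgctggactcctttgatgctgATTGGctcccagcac
H2-DMb1, chr17:34153075-34153144, plus strand: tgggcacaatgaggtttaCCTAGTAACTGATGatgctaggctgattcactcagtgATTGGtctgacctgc
H2-Ob, chr17:34238793-34238862, plus strand: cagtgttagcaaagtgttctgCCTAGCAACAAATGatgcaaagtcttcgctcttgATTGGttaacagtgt
H2-Aa, chr17:34287857-34287926, minus strand: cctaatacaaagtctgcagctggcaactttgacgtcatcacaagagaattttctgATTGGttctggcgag
H2-Oa, chr17:34092281-34092350, plus strand: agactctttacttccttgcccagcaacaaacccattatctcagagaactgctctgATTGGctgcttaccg

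In the first 3 of these stretches the X box began 36, 37 and 34 bases before the Y box, and the Y box began 59, 61 and 57 bases before the annotated start. In H2-Aa and H2-Oa the Y box began 48 and 43 bases before the start, and no X box was found with 1 letter off or less. H2-DMa had 2 promoter entries, neither of which held the pair. A match of letters is a description of the sequence, and no match says only that these letters are absent from this window.

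**Figure D1:**
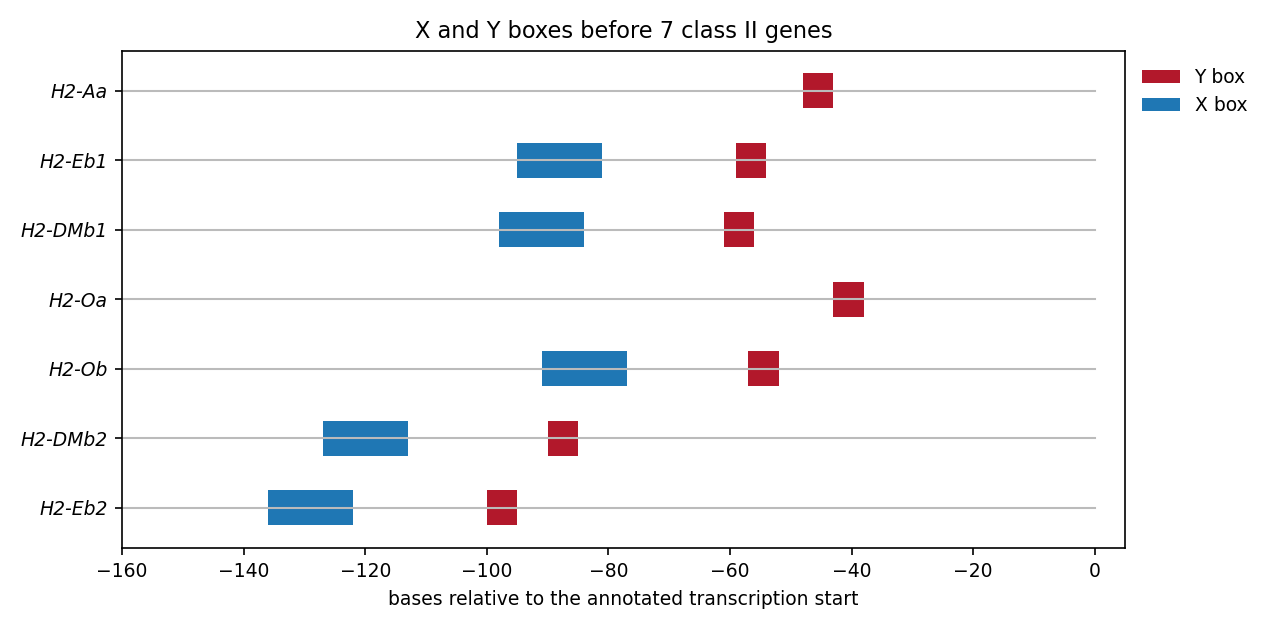
Positions of the X box (blue) and the Y box core (red) before the annotated start of 7 class II genes, in bases. H2-Eb1, H2-DMb1, H2-Ob, H2-DMb2 and H2-Eb2 hold both boxes at nearly the same distance from each other, 34 to 37 bases. In H2-Aa and H2-Oa only the Y box matched the search, and a more divergent X box is not excluded.

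All values below are log2 expression as normalized by the authors, whose depth is unknown. Sample medians ran from 8.73 to 8.87. Ptprc, which encodes CD45, ranged from 14.0 to 15.5 over the 24 samples, so the labelled leukocyte marker was high in every library. The epithelial gene Krt8 and the collagen gene Col1a1 were also high, with group means of 12.5 to 13.5 and of 12.4 to 14.0, although CD45+ cells had been selected. The study reports a high purity of the selected cells by flow cytometry, and the source of this RNA was not tested. Of the 24, the heatmaps of the study omit B1 and C1, both untreated, and E2 and B3, both treated with trastuzumab. Its methods state that samples were compared to remove possible outliers. Results are given for all 24 samples, and for the 20 others where a call of a class II or partner gene changed, with the counts of the other lists. Names such as B1 are the first part of the column headings, which follows the groups in order. A number after the group name has another range in the untreated samples than in the treated ones. What these stand for is not stated, and neither can be told apart from treatment. In bulk RNA, fewer cells of a type and less RNA per cell cannot be told apart. Reads of Balb/c mice were mapped to a reference of another class II haplotype, which can lower the level of the polymorphic chains in all groups alike.

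The invariant chain and the classical chains stood far above the other class II genes. Per kilobase of exon, Cd74 was highest with a mean log2 level of 16.04, followed by H2-Eb1 at 14.3, H2-Aa at 13.8 and H2-Ab1 at 13.5. H2-DMb1 at 10.9 and H2-DMa at 10.6 came next. The inhibitor genes H2-Ob and H2-Oa at 7.18 and 6.89 and the coactivator gene Ciita at 6.45 were lowest. The gap between Cd74 and H2-Eb1, 1.7 on the log2 scale, was larger than the SD over samples of either gene. H2-Aa and H2-Ab1, H2-DMb1 and H2-DMa, H2-Ob and H2-Oa, and H2-Oa and Ciita were neighbours that differed by less than the larger SD of the pair. H2-Ob nonetheless exceeded H2-Oa per kilobase in 18 of 24 samples and H2-DMb1 exceeded H2-DMa in 23. Exons of all isoforms were merged for these lengths, and reads of H2-DMb1 and of its near-identical neighbour H2-DMb2 may have been split between the 2 genes.

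The 9 genes varied to very different degrees among mice. H2-Ob spanned a 14.2-fold range over the 24 samples and H2-Oa a 10.3-fold range, with larger SDs than 99.7% and 98.8% of all genes. Ciita spanned 5.58-fold, Cd74 and the I-A and I-E chains 3.29-fold to 3.83-fold, H2-DMb1 2.99-fold and H2-DMa 2.38-fold. The share of this variation that lay between the 4 groups was highest for Cd74, at 40.5% of the sum of squares, and lowest for H2-Oa and H2-Ob, at 8.3% and 8.63%. Trastuzumab sample E2 was the highest of all samples in 7 of the 9 genes, with untreated C1 highest for H2-DMb1 and T-PNU sample H1 highest for H2-Ob. T-DM1 sample H3 was the lowest in 7 genes, trastuzumab G2 in H2-Aa and untreated A1 in H2-Oa. The most variable genes of the set were thus those in which the 4 groups accounted for the least.

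**Figure D2:**
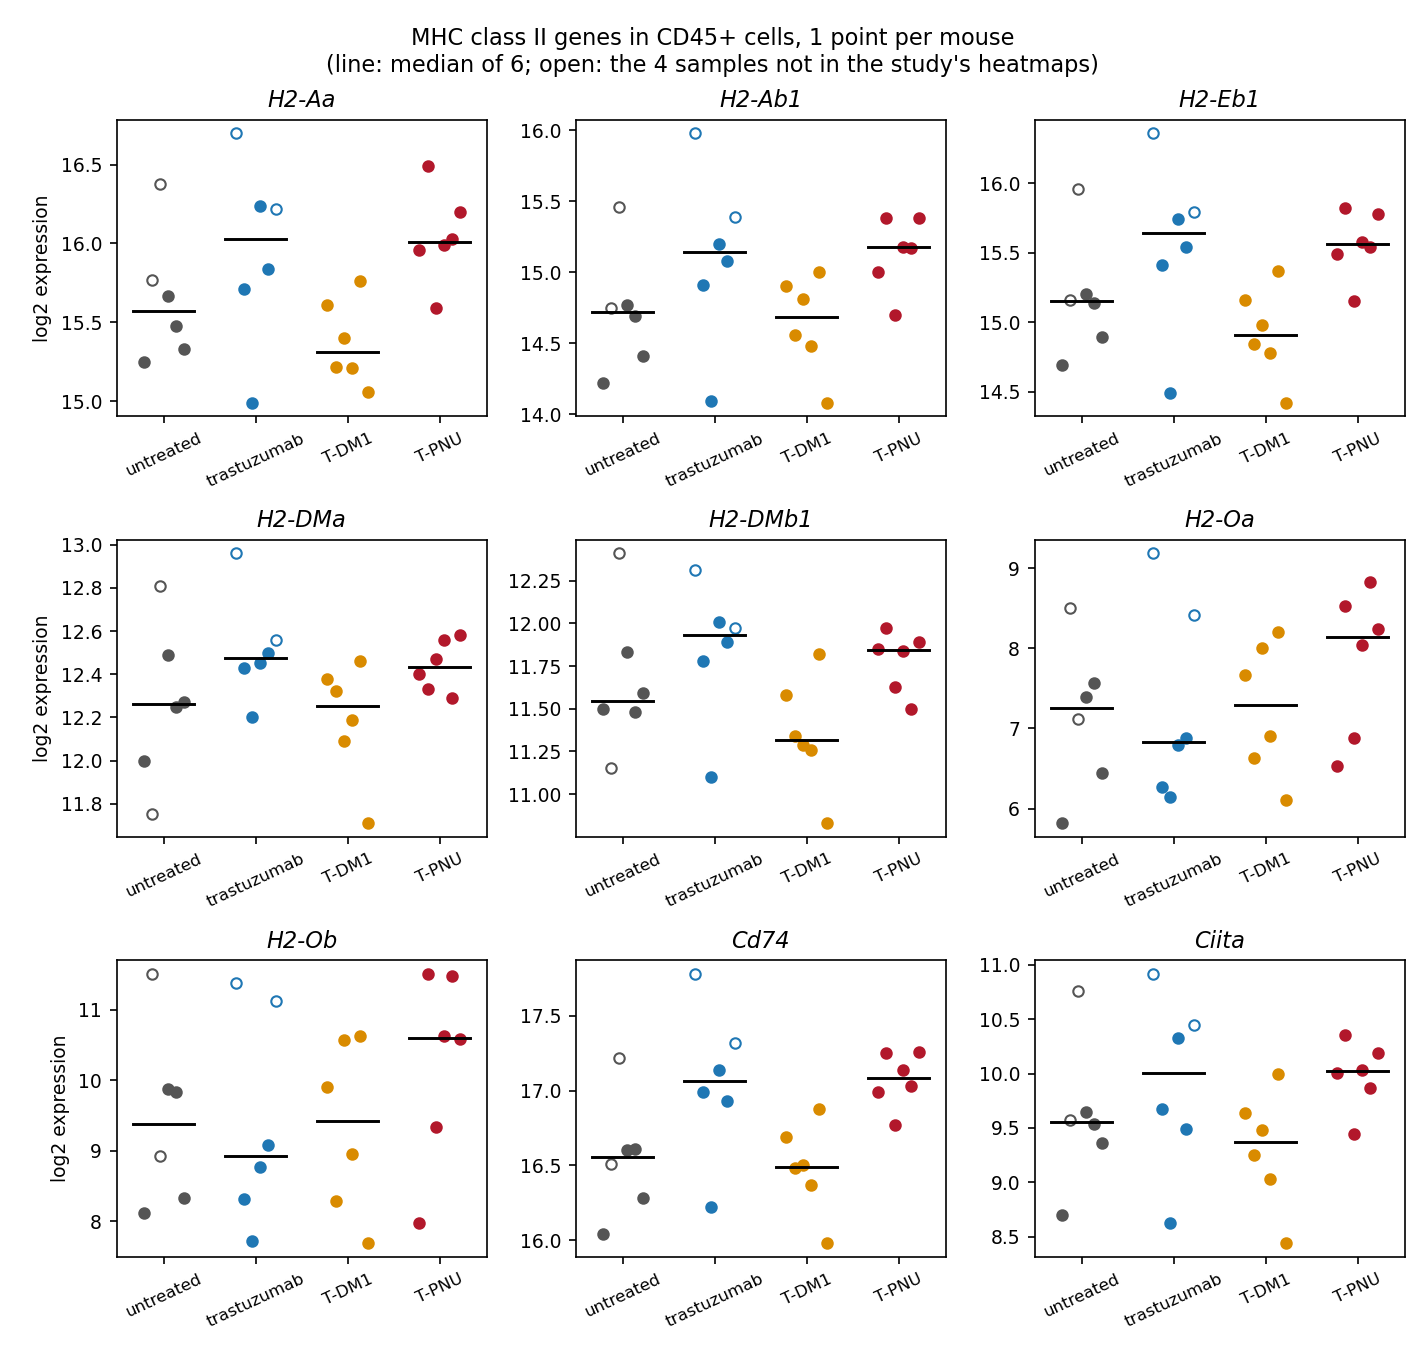
Log2 expression of the 9 genes in each mouse by group, with 6 points per group and a line at the median; open circles mark the 4 samples absent from the study's heatmaps. T-DM1 medians of H2-Aa, H2-Eb1 and Cd74 lie lowest, T-PNU points of these genes lie close together, and H2-Oa and H2-Ob spread widely in every group.

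H2-Aa, the I-A alpha chain, was highest on average in T-PNU tumors. Its lowest, median and highest values were 15.59, 16.01 and 16.49 with T-PNU. With trastuzumab they were 14.99, 16.03 and 16.70. Untreated tumors gave 15.25, 15.57 and 16.38, and T-DM1 tumors gave 15.06, 15.31 and 15.76. The T-PNU and T-DM1 ranges overlapped only between 15.59 and 15.76, and the trastuzumab group covered the whole span of the other groups. The group means were 16.04 ± 0.30 with T-PNU, 15.95 ± 0.59 with trastuzumab, 15.65 ± 0.41 in untreated and 15.38 ± 0.27 with T-DM1 tumors (SD, n = 6). Of neighbours in this order, each pair differed by less than the larger SD of the 2 groups.

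H2-Eb1, the I-E beta chain, ran from 15.15 over a median of 15.56 to 15.82 with T-PNU. The same values were 14.42, 14.91 and 15.37 with T-DM1, 14.69, 15.15 and 15.96 in untreated tumors, and 14.49, 15.64 and 16.36 with trastuzumab. Thus T-PNU samples were high and even, and T-DM1 samples were low with a small overlap. H2-Ab1, the I-A beta chain, gave 14.70, 15.18 and 15.38 with T-PNU and 14.08, 14.69 and 15.00 with T-DM1. Its untreated values were 14.22, 14.72 and 15.46 and its trastuzumab values 14.09, 15.14 and 15.98. The T-PNU and T-DM1 groups overlapped between 14.70 and 15.00.

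Cd74, the invariant chain, was high with both T-PNU and trastuzumab. Its lowest, median and highest values were 16.77, 17.08 and 17.26 with T-PNU and 16.22, 17.07 and 17.78 with trastuzumab. Untreated tumors gave 16.04, 16.56 and 17.22 and T-DM1 tumors 15.98, 16.49 and 16.88. Only the highest T-DM1 sample, G3, exceeded the lowest T-PNU sample, A2. The SD was 0.18 in the T-PNU group against 0.30 to 0.51 in the other groups.

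The H2-M genes differed less. H2-DMa ranged from 12.29 over a median of 12.43 to 12.58 with T-PNU and from 11.71 over 12.25 to 12.46 with T-DM1. H2-DMb1 gave 11.50, 11.84 and 11.97 with T-PNU and 10.83, 11.31 and 11.82 with T-DM1. In both genes the T-PNU values were the closest together of the 4 groups, with SDs of 0.12 and 0.18, and lay inside the span of the untreated values of 11.75 to 12.81 and 11.15 to 12.41. Trastuzumab values ran from 12.20 to 12.96 in H2-DMa and from 11.10 to 12.31 in H2-DMb1.

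The H2-O genes spread in every group. H2-Ob gave 7.98, 10.61 and 11.51 with T-PNU, 7.69, 9.43 and 10.63 with T-DM1, 7.73, 8.92 and 11.38 with trastuzumab and 8.12, 9.38 and 11.50 in untreated tumors. H2-Oa gave 6.53, 8.15 and 8.83 with T-PNU, 6.10, 7.29 and 8.21 with T-DM1, 6.14, 6.83 and 9.19 with trastuzumab and 5.82, 7.26 and 8.51 in untreated tumors. All 4 groups overlapped over most of their range, with group SDs of 1.22 to 1.51 for H2-Ob and 0.83 to 1.24 for H2-Oa. Ciita, the coactivator, gave 9.44, 10.02 and 10.36 with T-PNU, 8.44, 9.37 and 10.00 with T-DM1, 8.63, 10.00 and 10.92 with trastuzumab and 8.70, 9.56 and 10.76 in untreated tumors. T-PNU samples were again the most even, with an SD of 0.31 against 0.54 to 0.82.

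Groups were compared with limma across all genes, with all 24 samples in 1 fit and Benjamini-Hochberg adjustment over the 16996 genes. A gene was called at an adjusted p under 0.05. Each p-value rests on the spread between mice. No member had groups without overlap in any of the 6 comparisons, against 0.541% to 13.2% of all genes.

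Between the 2 conjugates, the mean normalized level in CD45+ cells was higher with T-PNU than with T-DM1 for each of the 9 genes. Of these, 3 genes passed the test. H2-Aa was higher by 0.67 on the log2 scale (SE 0.23, adjusted p = 0.0304), H2-Eb1 by 0.64 (SE 0.23, adjusted p = 0.0439) and Cd74 by 0.59 (SE 0.21, adjusted p = 0.0357). Of all genes, 29.8% were called in this comparison, so 3 of 9 is near the background and says nothing particular of class II genes. The median difference of the 9 genes was 0.59, against 0.03 over all genes. H2-Ab1 at 0.50, H2-DMb1 at 0.43, Ciita at 0.68 and H2-DMa at 0.25 had adjusted p-values of 0.109, 0.0909, 0.121 and 0.202. H2-Ob and H2-Oa had large but uncertain differences of 0.92 (95% interval -0.58 to 2.41) and 0.59 (95% interval -0.52 to 1.70).

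With the 20 samples, which leave both conjugate groups whole and lower the estimated spread, H2-Ab1, H2-DMb1 and Ciita were also called, at adjusted p-values of 0.0358, 0.0317 and 0.0466, and 39.9% of all genes were called. The 3 calls of the 24 samples were all lost when T-PNU sample H1 or D2 or T-DM1 sample D3, F3 or H3 was left out, and 1 call was left without T-PNU B2 or C2 or T-DM1 E3. The differences themselves moved little, between 0.58 and 0.76 for H2-Aa, 0.54 and 0.73 for H2-Eb1 and 0.49 and 0.67 for Cd74.

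Markers of several cell types moved in the same comparison. Ptprc was higher with T-PNU than with T-DM1 by 0.76 (SE 0.19, adjusted p = 0.00569), more than any of the 3 called class II genes. Of 10 macrophage and monocyte markers, 5 rose (Adgre1, C1qa, C1qb, C1qc and Mrc1) by 0.72 to 0.86, and the summed level of the list was 17.10 to 17.67 with T-PNU and 16.55 to 17.12 with T-DM1. Of 10 conventional dendritic cell markers, Xcr1 and Clec9a, which mark the cross-presenting subset, rose by 1.19 and 0.83 and Fscn1 fell by 1.13, with summed levels of 13.27 to 15.08 and 13.47 to 14.41. Of 6 tumor and stroma markers, Krt8, Col1a1 and Col3a1 fell by 0.96, 1.62 and 1.38 and Epcam and Pecam1 rose by 0.84 and 0.72, with summed levels of 14.18 to 15.23 with T-PNU and 15.68 to 16.19 with T-DM1, which do not overlap.

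None of 10 B cell markers and none of 8 T cell markers was called between the conjugates with 24 samples, although the median differences of these lists were 1.00 and 0.94. With 20 samples, 4 T cell markers were called, Cd3g, Cd8a, Cd8b1 and Thy1, higher by 0.77 to 1.05 at adjusted p-values of 0.00970 to 0.0272, and still no B cell marker. Summed B cell levels were 10.62 to 14.40 with T-PNU and 10.32 to 13.61 with T-DM1, and summed T cell levels 12.58 to 14.66 and 11.54 to 13.54. Of 5 neutrophil markers, Retnlg rose by 0.84, with summed levels of 14.44 to 15.45 and 14.06 to 15.08. Of 4 plasmacytoid dendritic cell markers, Ccr9 rose by 0.73, with summed levels of 13.57 to 14.24 and 13.85 to 14.14. With 20 samples 7 macrophage and monocyte markers, 3 neutrophil markers and both Ccr9 and Siglech of the plasmacytoid list rose, and of the dendritic cell markers Batf3 rose as well. No marker was at 0 in any sample, the lowest being a dendritic cell marker at 4.59. The part of these cell types in the class II differences was not tested.

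**Figure D3:**
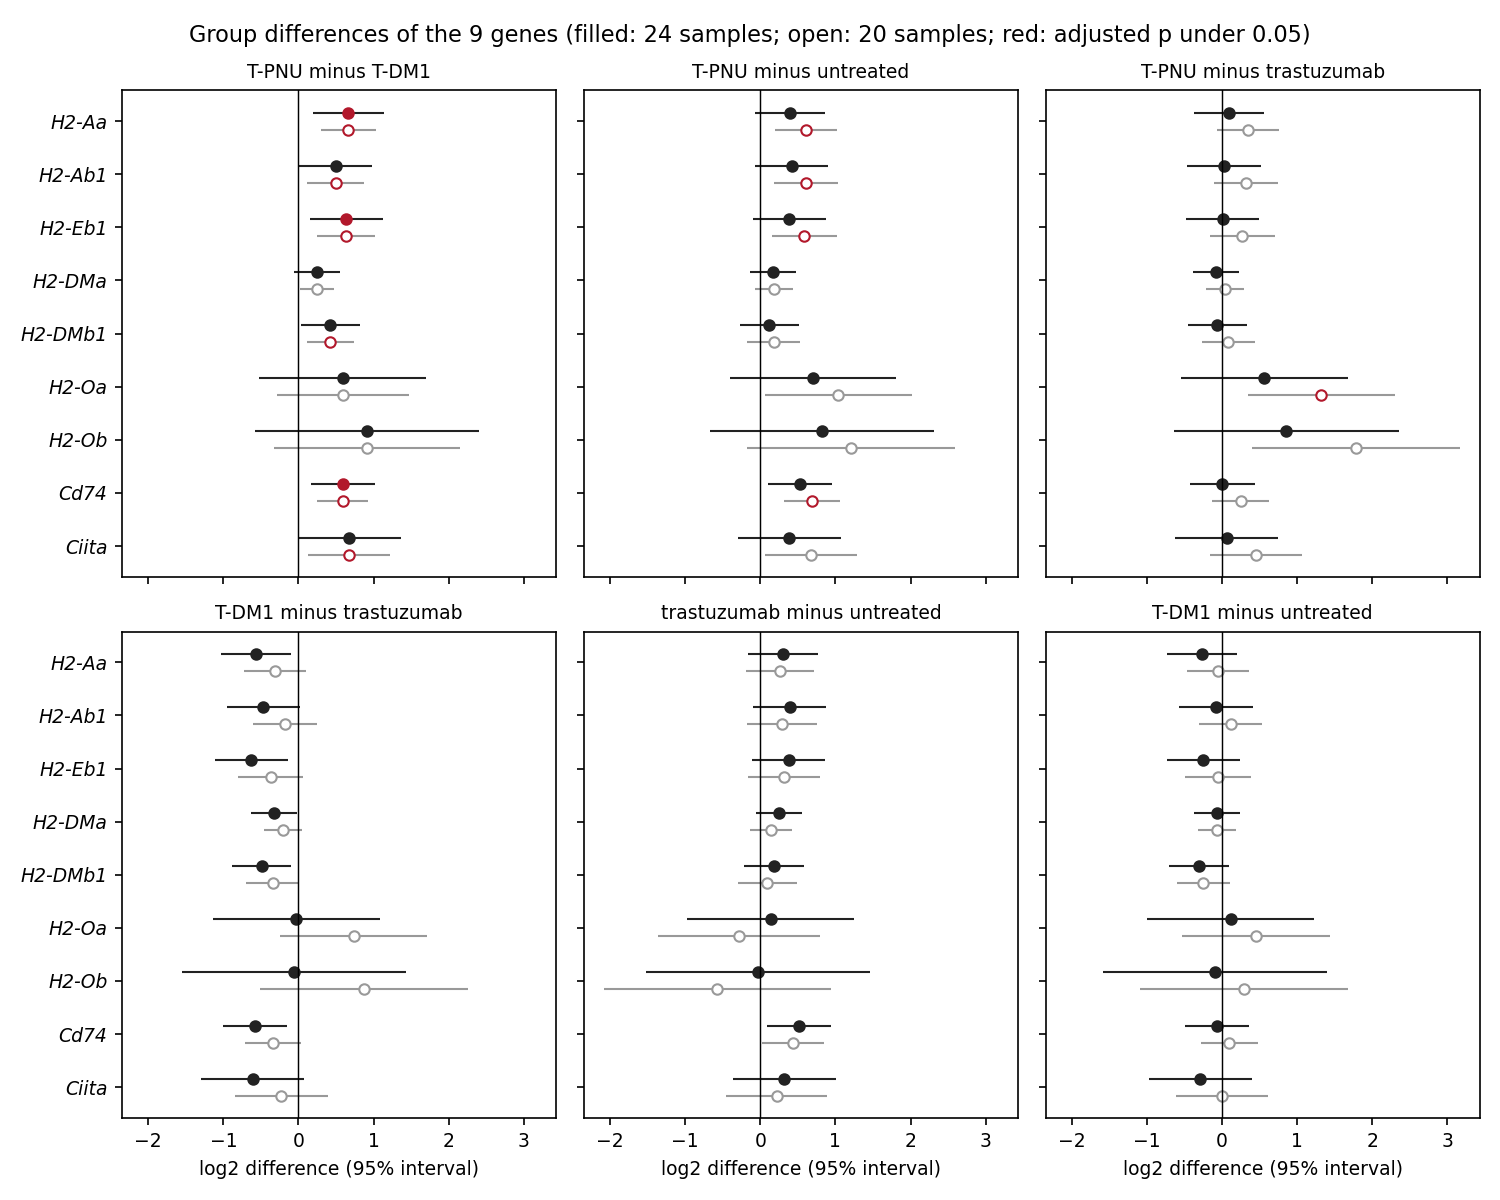
Log2 differences of the 9 genes with 95% intervals in the 6 comparisons, from 24 samples (filled) and from 20 samples (open), with adjusted p under 0.05 in red. The red filled points are H2-Aa, H2-Eb1 and Cd74 between T-PNU and T-DM1, and the intervals of H2-Oa and H2-Ob are the widest in every panel.

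Against untreated tumors, T-PNU gave higher means for all 9 genes, none of which passed the test with 24 samples, while 0.188% of all genes did. Cd74 came closest, higher by 0.53 (SE 0.21, unadjusted p = 0.0181, adjusted p = 0.131). It was the only member at an unadjusted p under 0.05, where 4218 of all 16996 genes stood. H2-Aa, H2-Ab1 and H2-Eb1 were higher by 0.40, 0.42 and 0.39, with adjusted p-values of 0.264, 0.262 and 0.291. The call turned on the samples. Without B1, C1, E2 and B3, 4 members were called, with differences of 0.69 for Cd74 (SE 0.18, adjusted p = 0.0111), 0.61 for H2-Aa, 0.61 for H2-Ab1 and 0.58 for H2-Eb1, at adjusted p-values of 0.0269, 0.0304 and 0.0400. In these 20 samples 31.1% of all genes were called. Leaving out untreated C1 alone, the highest untreated sample for all genes of the set except H2-Oa and H2-Ob, gave 1 call, Cd74 at an adjusted p of 0.0277. Beside this, summed macrophage levels were 16.25 to 18.03 in untreated tumors, with 1 of 10 markers called, Ly6c2 higher by 1.04, and Ptprc differed by 0.42 without a call. In the 20 samples with the 4 class II calls, Ptprc was higher by 0.70 (SE 0.15, adjusted p = 0.00480), more than any called member. All 8 T cell markers rose there, by 1.37 for Cd8a to 1.77 for Trac, with adjusted p-values of 0.00388 to 0.0236, and no B cell marker was called. Of the tumor and stroma markers, Epcam and Pecam1 rose by 1.00 and 0.70 and Krt8 and Col3a1 fell by 0.73 and 0.80. Of the dendritic cell and macrophage lists, 5 and 2 of 10 markers rose. Csf3r, Cxcr2 and Retnlg of the neutrophil list rose by 0.50, 0.59 and 0.92. Siglech and Ccr9 of the plasmacytoid list rose by 0.84 and 0.92, and the endosomal genes Ctsb and Ctsd by 0.40 and 0.34. The part of these genes in the class II differences was not tested.

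Against trastuzumab, the antibody without a payload, T-PNU gave nearly equal means for the classical chains and the invariant chain. The differences were 0.09 for H2-Aa, 0.03 for H2-Ab1, 0.01 for H2-Eb1 and 0.01 for Cd74, with 95% intervals that reached from -0.48 to 0.56. No member was called, and 0.00588% of all genes were called, a single gene. Nor was any member at an unadjusted p under 0.05, where 3308 of all 16996 genes stood. H2-Ob and H2-Oa were higher by 0.86 (SE 0.72, adjusted p = 0.477) and 0.56 (SE 0.54, adjusted p = 0.532). With the 20 samples H2-Oa was called, higher by 1.32 (SE 0.47, adjusted p = 0.0427), and H2-Ob, higher by 1.78, was just outside at an adjusted p of 0.0503, while 28.0% of all genes were called. The trastuzumab samples left out there, E2 and B3, were the highest of their group for H2-Oa, H2-Ob and the summed B cell markers, at 14.48 and 14.14 against 10.47 to 11.89 in the other 4. In the same 20 samples, 3 of 10 B cell markers rose, Cd22, Cd79b and Pax5 by 1.65, 1.84 and 2.16, as did 5 of 8 T cell markers and Ptprc, by 0.62 (adjusted p = 0.0115). Of the tumor and stroma markers, Epcam and Pecam1 rose by 1.22 and 0.69 and Krt8, Col1a1 and Col3a1 fell by 0.70, 1.19 and 0.96. The part of these markers in the H2-Oa difference was not tested.

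T-DM1 gave lower means than trastuzumab for all 9 genes. None was called, and 0.647% of all genes were. At an unadjusted p under 0.05 stood 5 members, and 2604 of all 16996 genes. The members were H2-Aa, H2-Eb1, H2-DMa, H2-DMb1 and Cd74, with differences of -0.57, -0.63, -0.33, -0.49 and -0.58. Their adjusted p-values were 0.178 to 0.289. Without trastuzumab sample G2, the lowest of its group, H2-Eb1 alone passed, at an adjusted p of 0.0458. T-DM1 against untreated tumors gave no call and no unadjusted p under 0.05 among the members. Of all 16996 genes, 6.27% were called and 3973 had an unadjusted p under 0.05. The differences ran from -0.31 for H2-DMb1 to 0.11 for H2-Oa, and that of Cd74 was -0.06 (95% interval -0.49 to 0.36).

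Trastuzumab against untreated tumors gave no call of a member, against 0.259% of all genes. Cd74 was higher by 0.52 (SE 0.21, unadjusted p = 0.0194, adjusted p = 0.434). It was the only member at an unadjusted p under 0.05, against 1491 of all 16996 genes. The other members differed by -0.03 to 0.39. These comparisons share groups and are therefore not independent of each other.

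Genes that act with class II molecules were then read from a list of 9, of which 3 rose with T-PNU compared to T-DM1, near the 29.8% of all genes called there. March1, a ubiquitin ligase that takes class II molecules and CD86 off the surface, was higher by 1.01 (SE 0.23, adjusted p = 0.00440). Its values of 10.20, 10.34 and 10.63 with T-PNU all lay above those of 8.96, 9.405 and 9.71 with T-DM1, as 13.2% of all genes did in either direction. Cd86, a costimulatory ligand of T cells, was higher by 0.40 (adjusted p = 0.00488), with 12.74 to 13.19 against 12.20 to 12.74. H2-Ea-ps, the I-E alpha chain, was higher by 0.64 (adjusted p = 0.0287), with 15.11 to 15.93 against 14.51 to 15.24. It is annotated as a pseudogene since the reference strain lacks its expression, whereas Balb/c mice express I-E, and its mean per kilobase of 15.2 lay between Cd74 and H2-Eb1.

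The other 6 were not called in any comparison with 24 samples. Between T-PNU and T-DM1, H2-DMb2, a second beta chain of H2-M, differed by 0.42 and H2-Eb2 by 0.52. Cd40, the receptor through which helper T cells activate presenting cells, differed by 0.24, Cd80, a second costimulatory ligand, by 0.03, Cd83, which keeps class II on the surface against March1, by 0.05 and March8, a relative of March1, by -0.24. With 20 samples March8 was lower with T-PNU than with trastuzumab, at a difference of -0.40 (adjusted p = 0.0328), and than in untreated tumors, at -0.44 (adjusted p = 0.0188). March1 was higher with T-PNU there, by 0.51 over trastuzumab (adjusted p = 0.0301) and by 0.68 over untreated tumors (adjusted p = 0.00795).

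Of 12 genes for the RFX and NF-Y complexes, their cofactors and class II regulators, 3 rose with T-PNU over T-DM1. This and the shares of the 3 lists that follow lay at or below the 29.8% of all genes called. These were Irf8, a transcription factor of dendritic cells and macrophages, by 0.54, Kat2b, a histone acetyltransferase, by 0.34 and Creb1 by 0.26, and the smallest difference was that of Nfya at -0.03. Of 8 endosomal processing genes, the cathepsins Ctss, which trims the invariant chain, and Ctsb rose by 0.54 and 0.53, and Cst3 was lowest at -0.29. Of 11 genes of the interferon gamma axis, 3 rose, Irf1 by 0.63 and Jak2 by 0.26 among them. Ifng itself had the largest difference, 0.86, without a call with 24 samples (adjusted p = 0.00742 with 20), and Gbp2 had the smallest, -0.00076. None of 10 MHC class I presentation genes was called there, with differences of -0.20 for Tapbp to 0.39 for Nlrc5 and a median of 0.08. With 20 samples, where 39.9% of all genes were called, 5 of the 12 regulators, 7 of the 11 interferon axis genes and 1 class I gene, Nlrc5, rose, and 5 of the 8 endosomal genes rose and Cst3 fell. The class I genes Tapbp and Tap2 rose with T-DM1 over untreated tumors by 0.56 and 0.46 with 24 samples, and Tapbp alone, by 0.51, with 20.

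The 9 genes did not move as 1 block among mice. Correlations are given as descriptions over the 24 libraries, with no test, and with the group means removed in a second value. Points share the RNA and normalization of their library. H2-Aa, H2-Ab1, H2-Eb1 and Cd74 had Pearson r of 0.944 to 0.984 with each other, and Ciita had 0.94 to 0.965 with these 4. The H2-M genes had an r of 0.89 with each other and the H2-O genes 0.974. Between H2-M and H2-O genes r was only 0.237 to 0.344. With group means removed the same pairs gave 0.885, 0.975 and 0.214 to 0.352, so these values did not rest on the differences between treatments. The H2-M genes did not stand apart from the classical genes. With H2-Aa, H2-Ab1, H2-Eb1, Cd74 and Ciita, H2-DMb1 had r of 0.843 to 0.893 and H2-DMa 0.69 to 0.816. H2-DMb1 was thus as close to H2-Eb1 (0.893) as to H2-DMa (0.89).

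**Figure D4:**
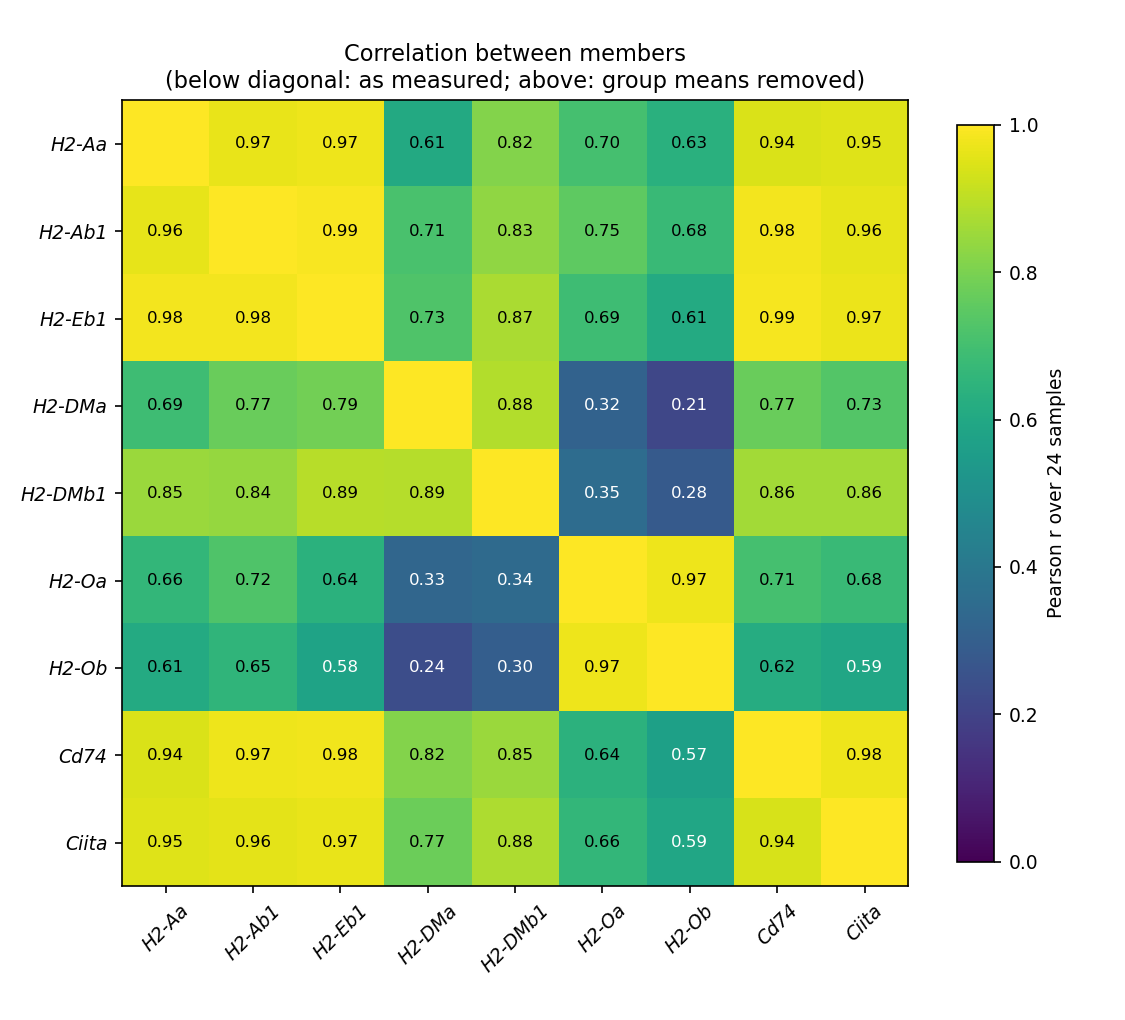
Pearson r between the 9 genes over 24 samples, below the diagonal as measured and above it with group means removed. The classical chains, Cd74 and Ciita form a block at 0.94 and above, and the lowest values, 0.24 and 0.21, are those of H2-DMa with H2-Ob.

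The H2-O genes followed the B cell markers. The mean of H2-Oa and H2-Ob had an r of 0.994 with the summed level of 10 B cell markers (Spearman rho 0.988, 0.993 with group means removed, 0.993 without A1 and E2, the 2 samples farthest from the median B cell level). In H2-Ob alone r was 0.992 and in H2-Oa 0.982. The same B cell level had an r of 0.624 with the mean of H2-Aa, H2-Ab1, H2-Eb1 and Cd74, 0.602 with Ciita and 0.305 with the mean of the H2-M genes, and these fell to 0.518, 0.488 and 0.158 without A1 and E2. The genes most like the H2-O mean over 24 samples were Fcrla, a gene of the B cell list, at an r of 0.992, Tnfrsf13c at 0.989, Srpk3 and Ccr6 at 0.988 and Fcmr at 0.988. H2-Eb2 of the partner list had an r of 0.976 with H2-Ob and 0.542 with H2-Aa. H2-O also had an r of 0.892 with the summed T cell markers and 0.92 with the summed dendritic cell list. The most abundant gene of that list was Ccr7, a receptor that lymphocytes also carry, at a mean log2 level of 12.58. Xcr1 and Clec9a, which add little to the sum, had r of 0.22 and 0.314 with H2-Ob. These rose to 0.401 and 0.577 without C1 and H2.

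The mean of H2-Aa, H2-Ab1, H2-Eb1 and Cd74 had a high r with the interferon gamma axis. Its r with the summed level of the 11 genes was 0.882 (Spearman rho 0.897, 0.85 with group means removed, 0.848 without A1 and G2), and that of Ciita was 0.878. That sum is set mostly by abundant genes such as Gbp2, Irf1 and Jak1, with mean log2 levels of 15.39, 14.68 and 14.18, against 6.66 for Ifng. The r of the classical mean with the summed T cell markers was 0.735 (Spearman rho 0.73) and 0.856 without B1 and C2, so the 2 lists were not ranked. The classical mean also had r of 0.789 with the summed RFX and NF-Y list, 0.727 with Ptprc and -0.548 with the summed tumor and stroma markers. For the H2-O mean the r with the interferon gamma axis was 0.486. Of single genes of the axis, Ifng and Irf1 had r with H2-Aa of 0.865 and 0.847. The genes most like this mean were Irf8 at 0.932, Dnase1l3 at 0.931, Cd160 at 0.926, Itgal at 0.923 and Fam26f at 0.92. Ciita was most like Gbp8 at 0.927, Irf8 at 0.912, Pdcd1lg2 at 0.9, Cd160 at 0.898 and Tbx21 at 0.894. Clec9a and Xcr1 had r of 0.891 and 0.852 with H2-Aa, whereas the summed level of the conventional dendritic cell list had 0.445. That sum is set mostly by Ccr7, Fscn1 and Itgax, with mean log2 levels of 12.58, 11.6 and 11.47. Clec9a and Xcr1, at 7.04 and 7.08, add little to it, so it does not stand for each marker.

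The H2-M mean was most like Slamf8 at an r of 0.911, Nrg2 at 0.879, Batf3 at 0.871, Gbgt1 at 0.869 and Klrb1b at 0.868. It was the block closest to the macrophage and monocyte list, with an r of 0.666 (0.553 with group means removed), against 0.389 for the classical mean and -0.23 for H2-O. Without B1 and C1 the r of 0.666 fell to 0.492. The H2-M mean had a similar r with the interferon gamma axis, 0.688 (0.626 with group means removed), so these 2 lists were not ranked. C1qa, a subunit of complement C1q, had an r of 0.767 with H2-DMa (0.618 without B1 and H3) and 0.443 with H2-Aa. Adgre1, another marker of the list, did not share this order. Its r was 0.558 with H2-DMa and 0.518 with H2-Aa, and 0.408 and 0.571 without B1 and E3.

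**Figure D5:**
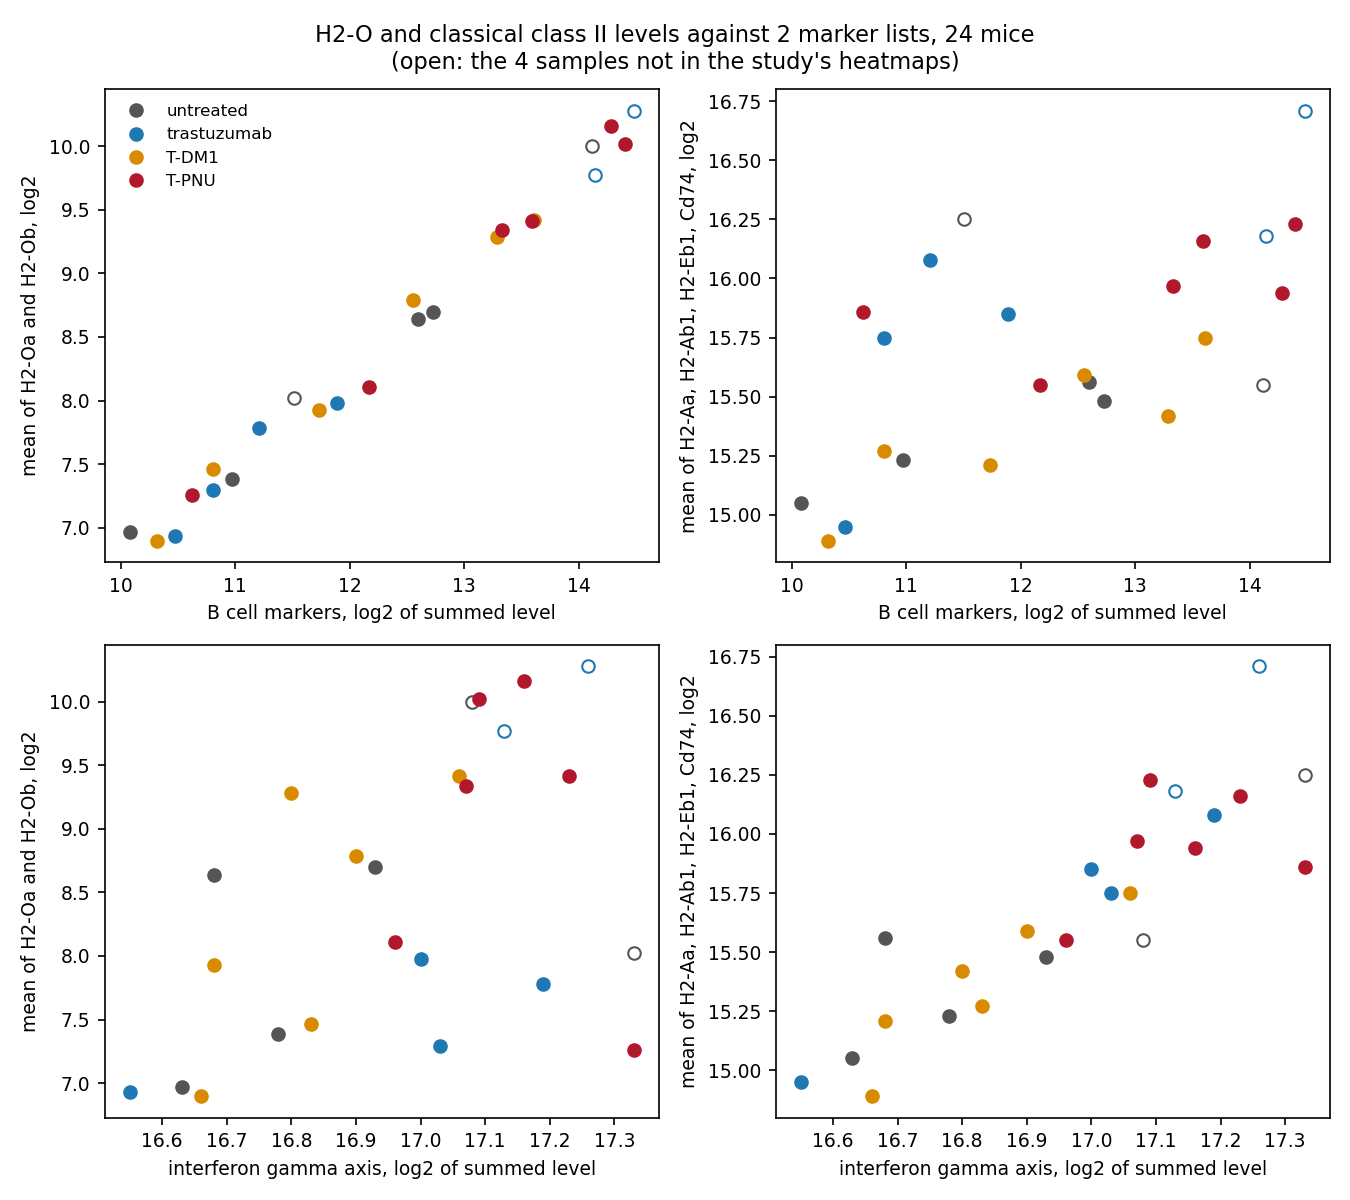
Mean log2 level of the H2-O genes (left) and of H2-Aa, H2-Ab1, H2-Eb1 and Cd74 (right) against the log2 summed level of the B cell markers (top) and of the interferon gamma axis (bottom), 1 point per mouse, colored by group, open for the 4 samples absent from the study's heatmaps. H2-O lies close to a line against B cell markers (r = 0.994) and is scattered against the interferon axis (r = 0.486), while the classical genes lie closer to a line against the interferon axis (r = 0.882).

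The RNA level of the H2-M genes minus that of the H2-O genes varied among mice of 1 group. In bulk RNA these levels can come from different cells, and the balance within a presenting cell was not tested. The mean log2 level of H2-DMa and H2-DMb1 minus that of H2-Oa and H2-Ob ran from 1.44 in untreated B1 to 4.87 in T-PNU sample G1. Group means were 3.06 ± 1.16 with T-PNU, 3.48 ± 0.84 with T-DM1, 3.67 ± 1.27 in untreated tumors and 3.84 ± 1.12 with trastuzumab (SD, n = 6), which differed by less than these SDs. B1 held a high B cell level of 14.12 and G1 a low one of 10.62.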

How the data were processed

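The deposited table holds log2 values that the authors normalized for library size, and the transformation is not named. Reads were aligned with STAR 2.4.2a (build mm10 per the submitters' processing notes) and counted by strand with featureCounts of Subread 1.5.0. Genes with an average under 5 counts had been removed, and the authors compared groups with DESeq2. Shrunken log2 values can give smaller differences than counts, and the depth per sample is unknown.

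Groups were taken from the labels and compared with limma 3.58.1 in R 4.3.3 (trend, no covariate), which was checked on simulated data. The 9 genes and all lists were chosen with earlier results of these data known. Named were all members and partner genes, the called and the extreme genes of other lists, and the 5 genes most correlated with 4 member patterns. The genes followed closely for their correlation with members were picked after their values were seen. A summed level is the log2 of added linear values, so the most abundant genes of a list weigh most. Alternatives were the 20 samples of the heatmaps, quantile normalization, a level filter, 2-group fits, sample weights, other variance settings, the study's thresholds (adjusted p under 0.01, fold above 2) and each replicate left out. Tables were handled in Python 3.11.15 and drawn with matplotlib 3.10.9. Values of 1 gene of the interferon gamma axis are not reported here, though it stays in the counts and the summed level of that list.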

Additional observations from a re-analysis of the deposited data

How the results depend on the processing

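No paired analysis was possible because replicate numbers were given in accession order and pair no mice across groups. H2-Oa was not tested with genes above the median level, where its own level left it out. The number of members called between T-PNU and untreated tumors was 0 in all 24 samples, 4 in the 20 samples, 4 with sample weights and 0 to 1 with each replicate left out. Between T-PNU and trastuzumab it was 0, and 1 in the 20 samples. Between T-PNU and T-DM1 it was 3, with 6 in the 20 samples, 6 in a fit of the 2 groups, 7 with sample weights, 0 at the thresholds of the study and 0 to 3 with each replicate left out, and Cd74 lost its call after quantile normalization (0.48), where 2 members were called. Between T-DM1 and trastuzumab it was 0, and 0 to 1 with each replicate left out. Why sample weights and the 20 samples gave more calls was not tested.

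No called difference changed sign. Of 372 differences of members under other alternatives than leaving out a replicate, 335 kept their direction and side of the threshold, 19 were called in addition, 1 lost its call and 17 changed sign. Differences between T-PNU and trastuzumab that did so were those of H2-DMa and H2-DMb1 in the 20 samples (0.0429 and 0.0825) and with sample weights (0.0503 and 0.0450) and that of Cd74 after quantile normalization (-0.0674). Differences between T-DM1 and untreated tumors became 0.11 for H2-Ab1, 0.30 for H2-Ob and 0.10 for Cd74 in the 20 samples and 0.0431, 0.0425 and 0.0493 with sample weights. That of H2-Oa between trastuzumab and untreated tumors became -0.28 and -0.12. Between T-DM1 and trastuzumab, H2-Oa became 0.73 and 0.33 and H2-Ob 0.87 and 0.31.

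With each replicate left out, differences near 0 also crossed it. Between T-PNU and trastuzumab the ranges were -0.16 to 0.15 for Cd74, -0.19 to 0.27 for Ciita, -0.10 to 0.25 for H2-Aa, -0.18 to 0.20 for H2-Ab1, -0.14 to 0.00917 for H2-DMa, -0.21 to 0.0281 for H2-DMb1 and -0.21 to 0.17 for H2-Eb1. Between T-DM1 and untreated tumors they were -0.16 to 0.0725 for Cd74, -0.18 to 0.0677 for H2-Ab1, -0.17 to 0.0386 for H2-DMa, -0.15 to 0.39 for H2-Oa and -0.36 to 0.32 for H2-Ob. Between T-DM1 and trastuzumab they were -0.25 to 0.35 for H2-Oa and -0.39 to 0.34 for H2-Ob, and between trastuzumab and untreated tumors -0.24 to 0.41 for H2-Oa and -0.43 to 0.38 for H2-Ob. With SEs of 0.54 for H2-Oa and 0.72 for H2-Ob in 24 samples, differences as large as the 0.70 and 0.92 measured for them were not detectable, and in the 20 samples an H2-Ob difference of 1.78 was not called.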
